A study of Mus musculus with 2 samples.

Results

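The probe sets described here are those of the antibody genes and of the proteins that carry IgA into the gut lumen, read on arrays of distal colon RNA from wild-type and interleukin-9 (IL-9) transgenic mice. They were chosen by an annotation rule, with earlier results of these data known. Members are all probe sets with at least 1 gene symbol that begins with Igh, Igk or Igl, or is Jchain (formerly Igj) or Pigr. Ighmbp2 was left out. The rule gave 31 gene symbols, read by 60 of the 22626 non-control probe sets. Of the 60, 47 had 1 symbol (23 different symbols) and 13 had several. Grouped by symbol alone, the 47 comprised 18 for heavy chain constant genes, 1 for a heavy chain variable gene and 21 for the κ light chain locus. The rest were 2 for the λ locus, 2 for the surrogate light chain gene Igll1, 1 for Jchain and 2 for Pigr. A symbol does not say which part of a chain a probe set reads.

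The wild-type group consisted of FVB mice, an inbred strain that the design text of the series spells TVB, and the other group of mice carrying an IL-9 transgene, whose sample is titled Tg5. IL-9 is a cytokine of type 2 immunity. RNA of 4 mice was pooled for each group and hybridised to 1 array, and both groups were kept under specific pathogen-free conditions. Age, the inbred background of the transgenic line and the promoter that drives its transgene are not given in the sources used here. With 1 pool per group there is no replicate check, no test was run, and no value below carries an error between animals.

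Antibodies are built from heavy and light chains, each with a variable part that binds antigen and a constant part, and the heavy chain constant gene sets the class (Ighm for IgM, Igha for IgA, Ighg genes for IgG). In the gut wall, plasma cells secrete mostly IgA, paired by the joining chain (Jchain). Epithelial cells take up this polymeric IgA, and IgM that contains joining chain, through the polymeric immunoglobulin receptor (Pigr) and release it into the lumen. In bulk tissue RNA, more cells of a type and more RNA per cell cannot be told apart.

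Jchain and Pigr are the measured members with a promoter of their own in the RefSeq table of GRCm38.p6, in which 3 of 31 member symbols were found (the other is Igll1). Both are shown, from 250 bases before the start of the gene to 50 after it, because they are the non-antibody ends of the IgA route and had the smallest ratios among the structural groups below. The octamer ATGCAAAT, the E box CACGTG and the PU.1 core GAGGAA were searched on both strands. These letters occurred in 1.74%, 7.15% and 28.3% of 32851 promoter windows of this length. Capitals mark a match, of which there was 1, the E box at bases 180 to 185 of the Pigr window. A match is a description of the letters and not a measured binding site.
Jchain, chr5:88527848-88528147, minus strand: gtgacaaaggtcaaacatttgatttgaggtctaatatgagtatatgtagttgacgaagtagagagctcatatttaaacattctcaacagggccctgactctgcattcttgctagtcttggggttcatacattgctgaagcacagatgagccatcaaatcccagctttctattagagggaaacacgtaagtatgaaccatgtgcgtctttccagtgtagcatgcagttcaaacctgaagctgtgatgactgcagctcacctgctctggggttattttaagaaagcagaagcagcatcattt
Pigr, chr1:130826434-130826733, plus strand: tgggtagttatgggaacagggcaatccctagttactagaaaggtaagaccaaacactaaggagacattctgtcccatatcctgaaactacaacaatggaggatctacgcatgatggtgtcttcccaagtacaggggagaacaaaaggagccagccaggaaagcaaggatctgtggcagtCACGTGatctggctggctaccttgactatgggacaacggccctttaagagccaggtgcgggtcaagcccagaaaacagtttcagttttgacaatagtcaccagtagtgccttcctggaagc

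Values are MAS5 intensities on a linear scale. Intensities below 19.8, the 40th percentile of non-control values over both arrays, were set to that floor before ratios were taken. A probe set above the floor on at least 1 array is called measured, a ratio with 1 array at the floor is a bound ("at least" that fold), and differences were counted from 2-fold, a log2 ratio of 1. All ratios are transgenic over wild type.

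Antibody probe sets were mostly higher in the transgenic pool. The ratio was large for 4 of the 7 measured probe sets annotated to Ighm and for 1 λ light chain probe set. It was under 2-fold for the other 3 Ighm probe sets and small for all 3 annotated to Igha. Which part of a rearranged heavy chain each Ighm probe set reads is not given. Of the 47 probe sets with 1 symbol, 27 were measured and 20 lay below the floor on both arrays. At least 2-fold higher were 7 of the 27, beside 0.792% of the 14149 measured probe sets of the array, and 0 were at least 2-fold lower, beside 0.763%. The ratio was above 1 for 26 of the 27, beside 53.6% of all measured probe sets. Their median log2 ratio was 0.60, against 0.02 for all measured probe sets. Because 3 of the 27 were measured only through the transgenic array, and so could only count as higher, the 24 that exceeded the floor in both pools were also counted. Of these, 5 were at least 2-fold higher, beside 0.638% of the 13002 such probe sets on the array, and 0 as much lower, beside 0.477%. The ratio was above 1 for 23 of the 24, beside 54.2%. Among members whose ID has the plain ending _at, which marks probes designed for 1 transcript, 2 of 12 measured members were 2-fold higher (0.779% of the array) and 0 lower (0.657%). Without a floor these counts were 11 and 3 of all 47, beside 5.87% and 7.18%. As a technical yardstick, the log2 ratios of probe sets of the same gene had a pooled SD of 0.28 over the 2847 genes with more than 1 probe set exceeding the floor in both pools. This SD holds no spread between animals.

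**Figure D1:**
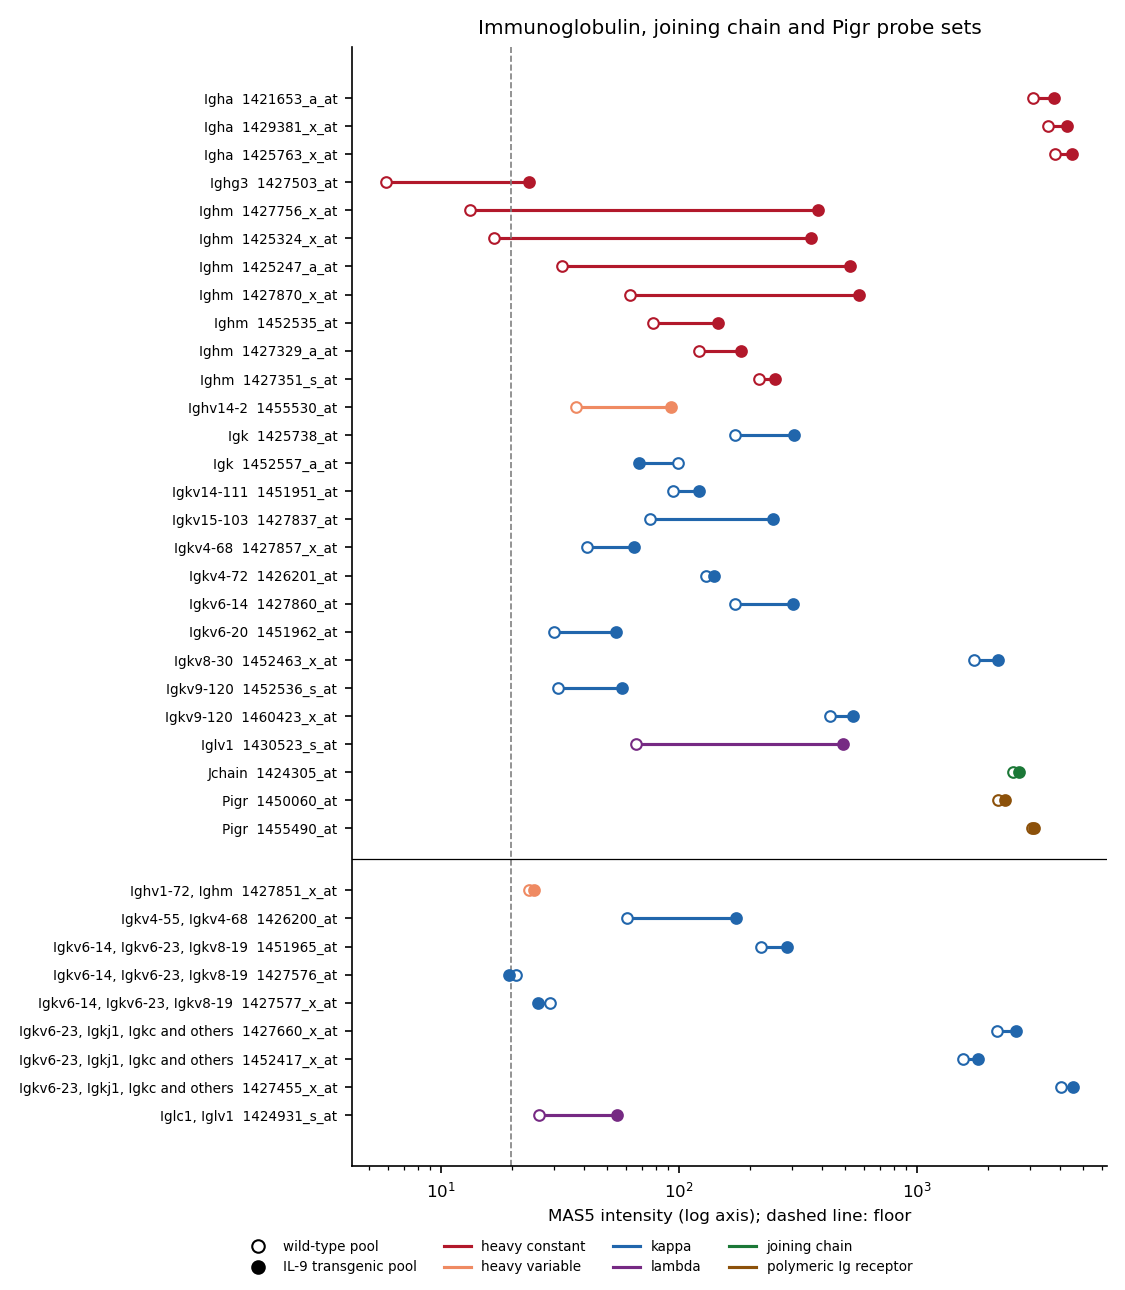
MAS5 intensity (log axis) of each measured probe set in the wild-type pool (open circle) and the IL-9 transgenic pool (filled circle), with members of 1 symbol above the horizontal line and members of several symbols below it; the dashed line is the floor of 19.8. The widest gaps are those of 4 Ighm probe sets and 1 Iglv1 probe set, while the Igha, Jchain and Pigr pairs lie close together at the right.

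Ighm, the constant gene of the μ heavy chain of IgM, had 11 probe sets, of which 7 were measured, and they fell into separate sets of 4 and 3. Probe set 1427870_x_at read 62.6 in wild type and 570 in transgenic colon, 9.11-fold higher. For 1425247_a_at the intensities were 32.3 and 525, 16.3-fold higher. Both pairs lay above the floor on both arrays.

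The other 2 high Ighm probe sets were below the floor in wild type. Probe set 1425324_x_at went from 16.7 to 360, at least 18.2-fold higher, and 1427756_x_at from 13.3 to 386, at least 19.5-fold higher. Both bounds depend on the floor: with a floor at the 60th percentile their log2 ratios were 2.71 and 2.81, and that of 1425247_a_at was 3.25 in place of 4.02.

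In the remaining 3 measured Ighm probe sets the ratio was under 2-fold. Intensities were 78.3 and 146 for 1452535_at (1.86-fold), 121 and 183 for 1427329_a_at (1.51-fold) and 217 and 255 for 1427351_s_at (1.17-fold). All 3 were higher in the transgenic pool. The other 4 Ighm probe sets lay below the floor in both pools. Among them, 1427869_at read 0.623 in wild type and 0.449 in transgenic colon. It is annotated to the same source sequence as the high probe set 1427870_x_at, and why these probe sets differ was not tested.

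Probe sets of Ighm thus disagreed on the size of the difference. Over the 5 that exceeded the floor in both pools the SD of the log2 ratio was 1.70, which ranked 1st among the 2847 genes with several such probe sets, whose median SD was 0.18. The annotation gives the symbol Ighm without saying which part of a rearranged heavy chain each probe set reads. All 4 high probe sets have IDs ending in _x_at or _a_at, which mark probes shared with other transcripts or with several transcripts of the gene, as do 2 of the 3 with smaller ratios (_a_at and _s_at). Among Ighm probe sets with the plain ending _at, 1 of 4 was measured, at 1.86-fold.

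Igha, the constant gene of the α heavy chain of IgA, was higher by a small ratio in each of its probe sets. Its 3 probe sets read 3094 and 3789 (1421653_a_at), 3550 and 4304 (1429381_x_at), and 3821 and 4476 (1425763_x_at) in wild-type and transgenic colon. The log2 ratios were 0.29, 0.28 and 0.23, which is 1.22-fold, 1.21-fold and 1.17-fold. These 3 ratios were close to each other, with an SD of 0.03. The probe sets lay near the top of the scale: 1425763_x_at ranked 19th of all non-control probe sets on the wild-type array and 6th on the transgenic array, whose highest value was 4753. Differences can be compressed there, and no value here measures by how much.

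Ighg3, a constant gene of the γ heavy chain of IgG, had 4 probe sets with 1 symbol, of which 1 was measured. Probe set 1427503_at went from 5.89 to 23.5, at least 1.19-fold higher. The other 3 were between 0.324 and 6.78 on both arrays. Signal of the probe sets annotated to this gene alone was therefore near or below the floor in both pools, and the small bound says little about size. No member carries the symbol of another Ighg gene, so these values do not describe IgG as a whole.

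The single heavy chain variable probe set with 1 symbol, Ighv14-2 (1455530_at), read 36.9 in wild type and 93.1 in transgenic colon, 2.52-fold higher. Variable genes encode the antigen-binding part, and a given B cell clone uses 1 such gene for its heavy chain. A further 4 heavy chain probe sets carry several symbols, and 3 of them, annotated to Ighv14-2, Ighg3 and Ighm together, did not exceed the floor in either pool. The fourth, 1427851_x_at for Ighv1-72 and Ighm, read 23.6 and 24.6, a log2 ratio of 0.06.

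κ light chain probe sets, the more used light chain type in mice, were higher by moderate ratios. Of 21 with 1 symbol, 11 were measured, 10 of these were higher and 1 reached 2-fold, with a median log2 ratio of 0.65. The variable gene Igkv15-103 (1427837_at) went from 75.4 to 249, 3.31-fold higher. Between 1.5-fold and 2-fold were Igkv9-120 by 1452536_s_at (31.2 to 58.0, log2 ratio 0.90), Igkv6-20 (29.9 to 54.5, 0.87), Igkv6-14 (173 to 302, 0.80) and Igkv4-68 (41.3 to 64.9, 0.65). With the higher floor at the 60th percentile, the log2 ratios of Igkv9-120 by this probe set and of Igkv4-68 were 0.07 and 0.24.

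The other measured κ variable probe sets were less than 1.5-fold higher. Igkv14-111 read 94.6 and 122 (log2 ratio 0.37), Igkv8-30 1741 and 2198 (0.34), and Igkv4-72 130 and 141 (0.12). A second probe set of Igkv9-120, 1460423_x_at, read 433 and 538 (0.31), less than the first. Thus all 9 measured probe sets with 1 symbol that name a κ variable gene were higher, from 0.12 to 1.72 on the log2 scale.

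Probe sets annotated only to the locus name Igk went both ways. Probe set 1425738_at read 172 and 304, 1.77-fold higher, whereas 1452557_a_at read 99.3 and 67.8, 1.46-fold lower, and was the only measured member with 1 symbol that was lower. Their SD of 0.97 ranked 7th among the 2847 genes. The remaining 2 Igk probe sets and 8 of variable genes, among them both of Igkv19-93, did not exceed the floor in either pool.

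The κ constant gene Igkc was read by 3 probe sets with several symbols (Igkv6-23, Igkv4-53, Igkv8-30, Igkj1 and Igkc). Their intensities were 4044 and 4526 (1427455_x_at), 2170 and 2618 (1427660_x_at), and 1565 and 1811 (1452417_x_at), with log2 ratios of 0.16, 0.27 and 0.21. Like Igha they were bright and only slightly higher in the transgenic pool. Among other several-symbol κ probe sets, the one for Igkv4-55 and Igkv4-68 (1426200_at) went from 60.5 to 173, 2.87-fold higher. The 3 measured ones for Igkv6-14, Igkv6-23 and Igkv8-19 had log2 ratios of 0.37 (1451965_at, 221 and 286) and −0.17 (1427577_x_at, 28.8 and 25.7), while 1427576_at (20.6 and 19.3), which reached the floor in the transgenic pool, was lower by at least 1.04-fold. The last κ probe set, for Igkv6-14 and Igkv6-23, was below the floor on both arrays.

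λ light chain signal was higher in both measured probe sets. Iglv1 (1430523_s_at), a λ variable gene, went from 66.2 to 490, 7.40-fold higher. The probe set for Iglc1 and Iglv1 (1424931_s_at), which adds a λ constant gene, went from 25.8 to 55.2, 2.13-fold higher. A second Iglv1 probe set, 1427292_at, was below the floor at 5.52 and 5.20. The measured λ probe sets both have the ending _s_at, so their probes are shared by several transcripts.

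Neither non-antibody member differed by more than 1.07-fold. Jchain (1424305_at), which links IgA and IgM into polymers, read 2529 in wild type and 2703 in transgenic colon, a log2 ratio of 0.10. Pigr, the epithelial receptor that carries these polymers into the lumen, read 2188 and 2340 by 1450060_at (0.10) and 3066 and 3118 by 1455490_at (0.02). The 3 log2 ratios are smaller than the yardstick SD of 0.28. Other members were under it too, among them Igha by 1425763_x_at (0.23) and 1429381_x_at (0.278, against an SD of 0.281). The 3 probe sets with Igkc (0.16, 0.27 and 0.21) were also under it. Igll1, part of the surrogate light chain of developing B cells in bone marrow, was below the floor in both probe sets, at 4.24 and 5.59 and at 0.577 and 0.493.

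Bright members had small ratios. All 10 members with a mean intensity over 1000, counting those with several symbols, were higher in the transgenic pool, with log2 ratios from 0.02 to 0.34 and a median of 0.22. The 602 probe sets of the array that bright had a median of 0.01, the middle 95% of them ended at 0.39 on the upper side, and 52.7% of them were higher. Of the 26 measured members at or under that intensity, 9 were at least 2-fold higher, beside 0.797% of the 13547 measured probe sets in that range. Of those 9, 2 were at the floor in wild type, as were 29 of the 108 probe sets 2-fold higher in that range. Across the whole array the share of summed intensity held by the 60 members was 0.943% in wild type and 1.18% in transgenic colon. The 3 Igha probe sets alone held 0.327% and 0.394%, and the 11 Ighm probe sets 0.0176% and 0.0767%, although the sum of the 3 measured Ighm probe sets under 2-fold was 1.40-fold higher. Such shares depend on how strongly each probe set binds, so they compare the pools and not the genes.

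**Figure D2:**
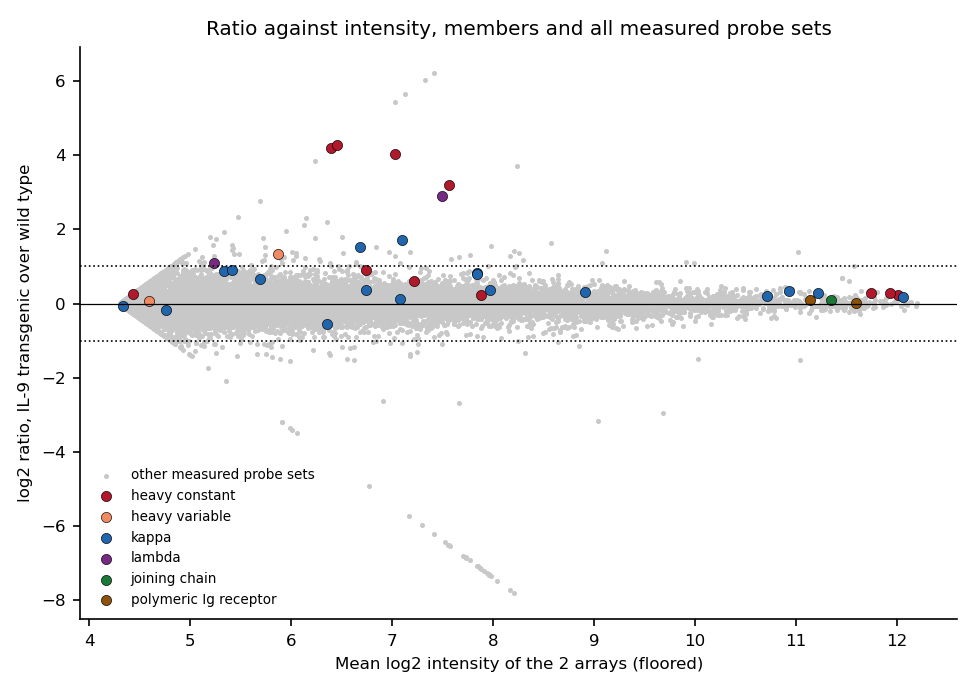
Log2 ratio of transgenic over wild type against the mean log2 intensity of both arrays for all 14149 measured probe sets (grey) and the members by structural group (coloured); dotted lines mark 2-fold. The 4 highest Ighm points lie between 3.19 and 4.29 at middle intensities, and the 10 brightest members lie between 0.02 and 0.34.

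Genes of the cells that make and move antibodies were read beside the members, with the brightest probe set of 1 symbol standing for each gene. Of all 8346 measured genes, 56.0% were higher, 0.767% reached 2-fold upwards and 0.611% downwards, and the median log2 ratio was 0.04. A gene that passed the floor in 1 pool only could only count as higher in that pool. B cell genes were higher in all 8 measured of 13 on the array, 4 of them at least 2-fold, with a median of 1.01. Of the 8, 6 exceeded the floor in both pools, among them the 4. The other 2, Cr2 and Cd72, passed it only in the transgenic pool and so could only count as higher. The summed intensity of the 13 was 284 in the wild-type pool and 565 in the transgenic pool. Of these genes Pax5, Blk, Fcer2a, Fcrla and Ebf1 did not exceed the floor in either pool. Cd79a, which passes on the signal of surface antibody, went from 20.7, just above the floor, to 78.5 (3.79-fold). Cd22, an inhibitory B cell receptor, went from 25.8 to 70.2 (2.72-fold), although its second probe set had a bound of only 0.06. Pou2af1, a B cell coactivator of octamer-bound promoters, went from 52.3 to 116 (2.21-fold), and Ms4a1 (CD20) from 35.2 to 77.6 (2.21-fold). The second probe set of Ms4a1 was below the floor, at 12.2 and 18.6.

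Plasma cell genes other than antibody genes differed less. Of 15 on the array 13 were measured, 12 of them above the floor in both pools. There were 11 higher, and 1 reached 2-fold, Pou2af1, which the B cell list holds too. The median was 0.41. Sdf2l1 and Derl3, of the endoplasmic reticulum machinery that folds and clears secreted proteins, had log2 ratios of 0.85 and 0.57, and the disulfide isomerase gene Txndc5 0.66, or 0.98 by its other probe set. Prdm1 and Xbp1, transcription factors of plasma cells that other colon cells also express, had 0.35 and 0.07. The 2 lower genes were Edem1, at −0.19, and the surface marker gene Sdc1, also made by epithelium, at −0.06. Which cells gave the values of this list, the higher ones included, was not tested. Tnfrsf17 (BCMA), a survival receptor of plasma cells, was below the floor at 5.62 and 19.4.

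Lymphoid follicle genes were higher in 8 of 9 measured of 13 on the array, with a median of 0.39. Of the 9, 6 exceeded the floor in both pools. The other 3, Ccl20, Cr2 and Madcam1, passed it only in the transgenic pool and so could only count as higher. The median is the bound of Cr2, which the B cell list holds too. Ltb, a lymphotoxin subunit needed for lymphoid tissue, went from 21.3 to 45.1 (2.12-fold). Cxcl13, the chemokine that draws B cells into follicles, went from 122 to 224 (1.83-fold) and was 0.55 on the log2 scale by its other probe set. Glycam1, an L-selectin ligand, had 0.85, and Ccl20, a chemokine of follicle-associated epithelium, was at least 1.66-fold higher. Summed over the 13 genes, intensity was 1027 and 1167. Of this Clu, which many cell types express, gave 610 and 509. Most follicle and B cell genes that exceeded the floor in both pools were thus higher in the same pool as the Ighm probe sets. A piece of colon can hold different numbers of follicles, and the part of follicle content in the antibody values was not tested.

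Germinal centre and class-switching genes, which act when a B cell changes from IgM to another class, were mostly unmeasured. Of 10 on the array 4 were measured, 2 higher and 2 lower, with a median of −0.01. Fas had a log2 ratio of 0.42, Bcl6, the master transcription factor of germinal centre B cells, −0.20 (0.07 by its other probe set), Msh6 −0.10 and Ung, a DNA repair enzyme of switching, 0.07. Il21, Cd40 and Cd40lg lay below the floor in both pools.

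Genes of IgA induction and plasma cell homing had 9 measured of 20, 6 of them above the floor in both pools. There were 5 higher, 4 lower and 0 past 2-fold, with a median of 0.05. Tnfrsf13b (TACI), a receptor for the B cell factor BAFF, was at least 1.96-fold higher, and Tnfrsf13c, another such receptor, at least 1.45-fold. Tnfsf13b, which encodes BAFF, was 1.36-fold higher (47.2 to 64.0). Ccl28, the epithelial chemokine that draws IgA plasma cells to the colon, was 1.37-fold lower (144 to 105), with a log2 ratio of −0.18 by its other probe set. Its receptor gene Ccr10 was below the floor at 11.7 and 15.3, as were Il5, Il6 and Il10.

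All 19 genes on the array from a list of Pigr regulators and carriers of the receptor through the cell were measured. Of these, 18 exceeded the floor in both pools. There were 12 higher (63.2%, beside 56.0% of all measured genes) and 7 lower, with a median of 0.06. The exception in size was Rab3b, a small GTPase known from cultured kidney epithelial cells to bind the receptor and act on its transport. It went from 146 to 63.0 by its single probe set, 2.31-fold lower. Il4ra, the receptor chain for IL-4 and IL-13, was at least 1.65-fold higher, while Usf2, an E box binding factor, and Stat6 had −0.42 and −0.31. A second probe set of each went the other way, at 0.09 for Usf2 and 0.39 for Stat6.

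Genes of B cell receptor signalling were higher in all 7 measured of 9 on the array, from 0.09 to 0.61, and 0 reached 2-fold. The median of the 7 was 0.34. Of them, 5 exceeded the floor in both pools. The other 2, Btk and Pik3cd, passed it only in the transgenic pool and so could only count as higher. The kinase gene Syk had 0.61 (60.7 to 92.3), the adaptor genes Blnk and Dapp1 0.37 and 0.34, and the kinase gene Btk was at least 1.38-fold higher. Syk also acts in mast cells and macrophages.

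**Figure D3:**
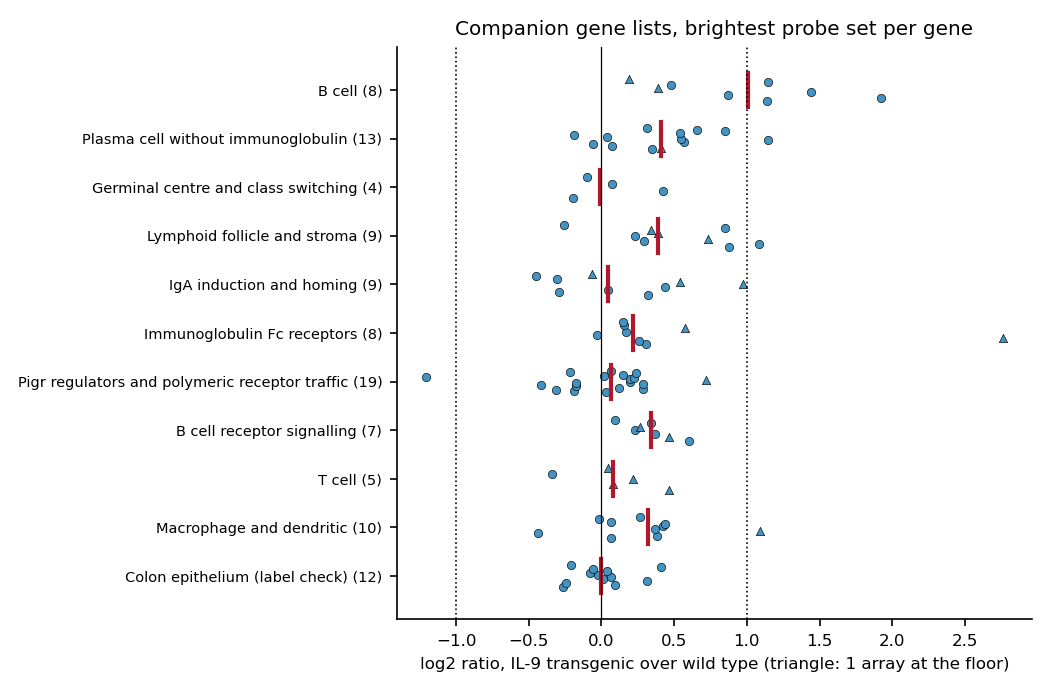
Log2 ratio of transgenic over wild type for each measured gene of 11 lists (number measured in brackets), with circles for ratios, triangles for bounds with 1 array at the floor, red bars for medians and dotted lines at 2-fold. The B cell list has the median furthest to the right at 1.01 (without a floor, the T cell median of 1.01 exceeded the B cell median of 0.86), and the colon epithelium list is centred on −0.01.

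The labelled tissue was checked on colon epithelium genes. All 12 on the array were measured, with 6 higher, 6 lower and a median of −0.01. Fabp2, a fatty acid binding protein gene, and Cdx2, a transcription factor gene of intestinal identity, had log2 ratios of 0.41 and 0.31. Car1 (1591 and 1326) and Slc26a3 (2296 and 1942), which serve absorptive colonocytes, had −0.26 and −0.24. The pools also differed in exocrine pancreas genes. All 9 on the array were at least 2-fold lower in transgenic colon, with a median of −7.14 and summed intensities of 24746 and 1659, and 6 of them were at the floor there. Cela3b read 3515 in wild type and 4.52 in transgenic colon. The part of pancreatic RNA in the antibody values, and in those of the companion lists such as the plasma cell genes, was not tested.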

How the data were processed

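The deposited values are intensities on a linear scale, 1 per probe set and array. Per the submitters' processing notes MAS5 gave these values, without a version, and no genome build is given in the sources used here. The mean intensity without the lowest and highest 2% was 100.04 on both arrays. The array had 22690 probe sets, 64 of them controls, and 60.2% and 59.8% of the others exceeded the floor in wild-type and transgenic colon. Having 1 array per group limits how precise each value is.

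Probe sets were named from GEO's platform annotation, which can be old. The floor was the 40th percentile, the threshold 2-fold, and no further scaling was done (Python 3.11.15, pandas 2.3.3). Ratio code was tested on simulated data. Named were all measured members, all constant-gene, Jchain and Pigr probe sets with 1 symbol (those below the floor by count or range), and up to 4 genes of largest ratio per companion list; other companion genes were chosen after their values were seen. Members and lists were chosen with earlier results of these data known. The 9 alternatives were median scaling, quantile normalization, loess (span 0.3), floors at the 20th and 60th percentiles, no floor (pseudocount 0.735), plain _at probe sets alone, several-symbol probe sets added, and the brightest probe set per gene.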

Additional observations from a re-analysis of the deposited data

How the results depend on the processing

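Median scaling, quantile normalization and loess left the count of members at 7 higher, beside 0.763%, 0.763% and 0.742% of all probe sets, and 0 lower, beside 0.77%, 0.763% and 0.763%, and each moved the median of all probe sets by under 0.1. The count higher was 8 of 39 with a floor at the 20th percentile (1.91%), 6 of 25 with one at the 60th (0.545%), 2 with plain _at probe sets alone (0.779% of all), 4 with the brightest probe set per gene (0.767%) and 11 of 47 without a floor (5.87%), where 3 were lower (7.18%). With the floors at the 20th and 60th percentile 0 were lower (2.82% and 0.618%). The number of Ighm probe sets past 2-fold was 0 of 1 with plain _at probe sets alone. A value was taken to move when it shifted by at least the yardstick SD of 0.28. The heavy chain constant median was then 0.25 with the brightest probe set per gene and 0.28 without a floor. The heavy chain variable value was 0.76 with the higher floor (60th percentile) and 0.70 with several-symbol probe sets, the κ median 0.32 and 0.35 under the same settings, and the λ median 1.40 without a floor and 1.99 with several-symbol probe sets. No named member probe set changed sign, and 4 of 211 values crossed 2-fold: Ighg3 1427503_at (2.0 with the lower floor, 1.87 without one), and Ighv14-2 (0.76) and the probe set for Iglc1 and Iglv1 (0.0023) with the higher floor. Without a floor the Ighg3 median over 4 probe sets was −0.72. The bounds of Ighm 1425324_x_at and 1427756_x_at fell to 2.71 and 2.81 with the higher floor. Of 72 list medians, 9 moved and 3 had the opposite sign; the B cell median was 0.49 with the higher floor, which leaves 5 genes. No paired analysis was possible because each group has 1 array.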

Other observations

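Receptors for antibodies had 8 measured of 13 genes on the array, 6 of them above the floor in both pools. Of the 8, 7 were higher, with a median log2 ratio of 0.21. Fcer1a, the chain by which mast cells hold IgE, went from 7.17 to 134, at least 6.79-fold higher, and was the 1 member of the list past 2-fold. The 1 lower gene was Fcer1g, at −0.03 (56.1 and 54.8), and Ms4a2 was below the floor at 5.88 and 15.5. Fcrl1, a receptor-like protein of B cells, was at least 1.49-fold higher, and the IgG receptor genes Fcgr2b and Fcgr3 had 0.31 and 0.26, although 1 of the 4 probe sets of Fcgr2b had −0.17. T cell genes had 5 measured of 9, with 4 of the 5 unmeasured in the wild-type pool, and a median of 0.08. That median moved with the floor, to 0.86 over 9 genes when the floor was lowered to the 20th percentile and to 1.01 when none was set. Cd3d was at least 1.38-fold higher, Cd3g at least 1.16-fold and Cd3e at least 1.06-fold, while Zap70 had −0.34. Macrophage and dendritic cell genes had 10 measured of 11, 9 of them above the floor in both pools. Of the 10, 8 were higher, with a median of 0.32. Itgax was at least 2.13-fold higher. C1qc and C1qb, chains of a complement protein that binds antibodies, had 0.44 and 0.42, although 1 of the 3 probe sets of C1qb had −0.32. Adgre1 had −0.43. All 6 early B cell genes on the array, among them Rag1, Rag2 and Vpreb1, were below the floor in both pools.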
